A study of Mus musculus with 6 samples.

Results

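The Notch pathway was examined in mouse embryonic fibroblasts (MEFs), connective tissue cells cultured from embryos, that were WT or *Aff3ir-ORF2*-/-. The 10 genes described here were taken by symbol from the 17092 genes of the count table. They are the receptors *Notch1*, *Notch2* and *Notch3*, the ligands *Jag1*, *Jag2* and *Dll1*, and the target genes *Hes1*, *Hey1*, *Hey2* and *Heyl*. Each genotype was sequenced in 3 libraries, with 17435133 to 18252330 counts per library. The *Aff3ir-ORF2*-/- line is a global knockout of 1 reading frame of *Aff3ir*, a gene nested in *Aff3*, made by injecting Cas9 mRNA and guide RNAs into fertilized eggs and intercrossing heterozygotes. No treatment is named for the libraries of either genotype, and the embryonic stage is not given in the sources used here. Nor do the sources say whether the libraries of a genotype came from separate embryos or cultures, so that the p-values measure the spread between these libraries, which may be technical.

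In Notch signalling, a ligand of the Jagged or Delta-like family on one cell binds a Notch receptor on its neighbour. The receptor is then cut by an ADAM protease and by gamma-secretase, and the freed intracellular part enters the nucleus and joins the DNA-binding protein RBPJ and a Mastermind coactivator to switch on target genes. The best known targets are the *Hes* and *Hey* genes, which encode basic helix-loop-helix repressors. In the vessel wall, Notch1 acts mainly in the endothelium and Notch3 in smooth muscle cells and pericytes, while fibroblasts carry several of the receptors and Jagged1.

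The Notch members called here as changed went in opposite directions in *Aff3ir-ORF2*-/- MEFs. *Notch3* rose 2.71-fold, *Notch1* rose 1.56-fold and *Hey1* rose 2.93-fold, whereas the ligand *Jag1* was 2.29-fold lower. *Hes1*, the target with the highest level per transcript length, did not pass the test. Of the 10 members, 7 had enough counts to be tested with edgeR's quasi-likelihood test, while *Jag2*, *Dll1* and *Heyl* did not. A call needed a Benjamini-Hochberg adjusted p under 0.05 over all 13075 tested genes and a change of at least 1.5-fold. By this rule, 3 of the 7 tested members were higher and 1 was lower. Among all tested genes, 14.2% were higher and 7.27% lower, 21.4% in all. By the adjusted p alone, without regard to the size of the change, 5 of the 7 members passed, and 56.8% of all tested genes did. The median log2 fold change was 0.18 over the 7 members and 0.01 over all tested genes. *Hey1* passed the filter on low counts only through the *Aff3ir-ORF2*-/- libraries and *Hey2* only through the WT libraries, so their place among the tested members was not independent of their values.

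Among the *Aff3ir-ORF2*-/- libraries, replicate 2 stood apart from the other two on the second principal component of log2 expression (22.5, against -8.81 and -14.7). The values of *Notch3*, *Hes1* and *Hey2* are given without it too. The *Aff3ir* transcript was not analysed here, so it did not check the genotype of a library. The parent gene *Aff3* had 406, 406 and 418 counts in the WT libraries against 229, 186 and 209. All 13 listed fibroblast genes were tested. Their summed level was 30809 ± 62.9 CPM (counts brought to a common library size by the TMM method) in WT and 28596 ± 3465 CPM in *Aff3ir-ORF2*-/- MEFs (SD, n = 3). Past both thresholds 1 gene was higher and 1 lower, against 14.2% and 7.27% of all tested genes. These were *Lum* (log2 fold change 2.17) and *Postn* (-1.04). By the adjusted p alone, *Fn1* and *Prrx1* also passed upward and *Col1a1*, *Col1a2* and *Vim* downward.

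**Figure D1:**
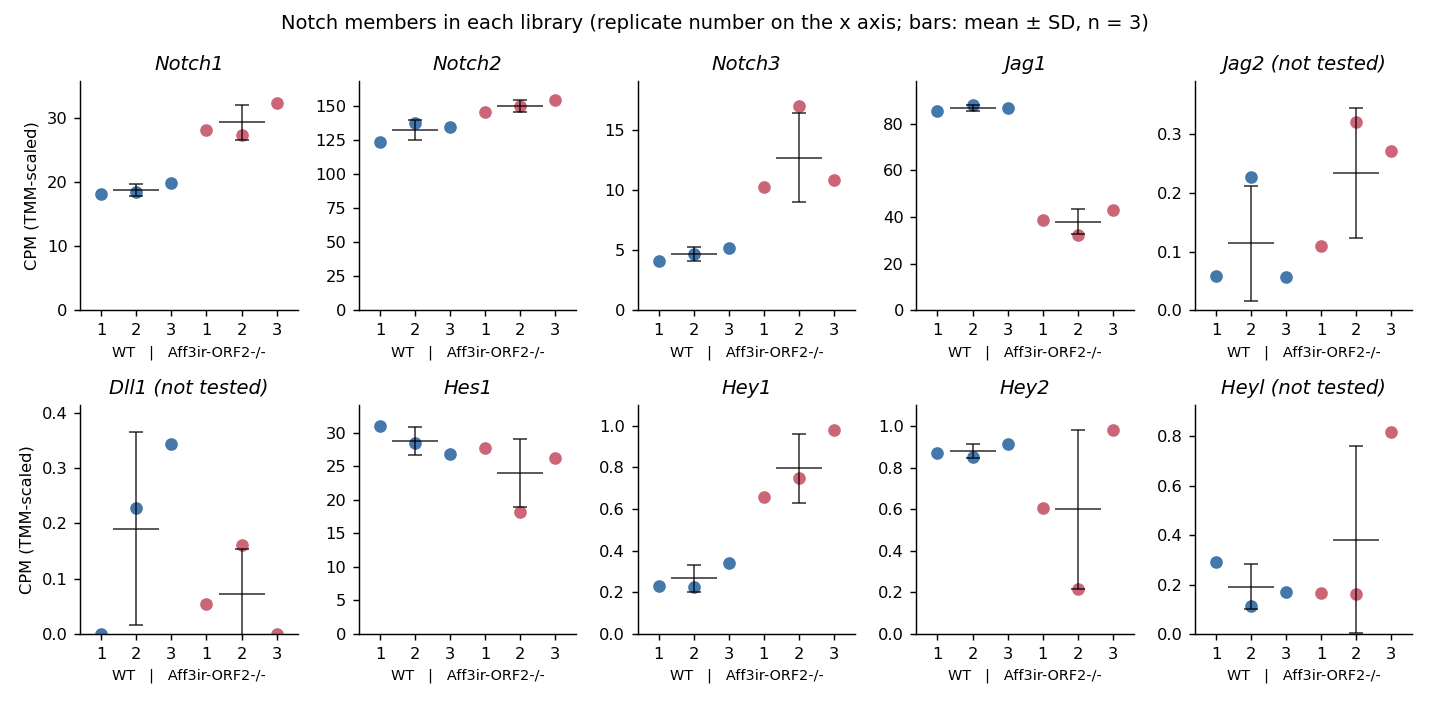
Each panel shows 1 of the 10 members, with the TMM-scaled CPM of each library on a linear axis from 0, WT in blue and *Aff3ir-ORF2*-/- in red, and the mean ± SD of 3 libraries in black. *Notch1*, *Notch3* and *Hey1* lie above and *Jag1* below WT in all *Aff3ir-ORF2*-/- libraries, and *Aff3ir-ORF2*-/- replicate 2 is the highest for *Notch3* and the lowest for *Jag1*, *Hes1* and *Hey2*.

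Among the receptors, *Notch3* (gene ID 18131) moved most. Its counts were 71, 83 and 91 in the WT libraries against 187, 317 and 199 in the *Aff3ir-ORF2*-/- libraries, in the order of their replicate numbers here and throughout. Every *Aff3ir-ORF2*-/- library lay above every WT library, and replicate 2 lay well above the others of its genotype. The mean level went from 4.68 ± 0.546 to 12.7 ± 3.74 CPM (SD, n = 3), and the log2 fold change was 1.44 with a standard error (SE) of 0.21 (edgeR, adjusted p = 6.43e-04). Without *Aff3ir-ORF2*-/- replicate 2 it was 1.17, with an adjusted p of 1.41e-06. For *Notch1* (gene ID 18128), WT libraries held 312, 325 and 346 counts against 513, 511 and 595 in *Aff3ir-ORF2*-/- libraries. The genotypes did not overlap, and the change was larger than the spread in either. Its level rose from 18.8 ± 0.895 to 29.3 ± 2.70 CPM (SD, n = 3). Its log2 fold change was 0.64 with SE 0.08 (edgeR, adjusted p = 1.25e-04). This lies close to the 1.5-fold threshold, and without *Aff3ir-ORF2*-/- replicate 3 the log2 fold change was 0.56, under that threshold, with an adjusted p of 2.09e-04. For *Notch2* (gene ID 18129), WT libraries held 2140, 2424 and 2362 counts against 2656, 2800 and 2839 in *Aff3ir-ORF2*-/- libraries. Its libraries did not overlap either, but the difference was small. Its log2 fold change was 0.18 (95% interval 0.07 to 0.30, adjusted p = 0.0124 in the edgeR test), so that it passed the adjusted p but not the fold threshold, and without WT replicate 1 it passed neither (adjusted p = 0.0553).

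The 250 bases before the start of *Notch1* and of *Notch3*, the receptors that rose, are shown here from RefSeq (GRCm38.p6) in the direction of the gene. They were searched on both strands for GTGGGAA, the core letters of the RBPJ motif, and for CACGTG and CACGCG, boxes that HES and HEY proteins are known to bind. None of these letters occurred in the windows of 300 bases (250 before and 50 after the start) of either gene, so nothing is in capitals. *Notch1* lies on the minus strand at chr2:26503823-26504072 and *Notch3* on the minus strand at chr17:32166891-32167140.
Notch1: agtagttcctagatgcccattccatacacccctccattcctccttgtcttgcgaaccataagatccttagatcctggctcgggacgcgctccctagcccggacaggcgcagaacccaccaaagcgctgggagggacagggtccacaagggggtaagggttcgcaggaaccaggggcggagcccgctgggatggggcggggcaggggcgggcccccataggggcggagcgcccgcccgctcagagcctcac
Notch3: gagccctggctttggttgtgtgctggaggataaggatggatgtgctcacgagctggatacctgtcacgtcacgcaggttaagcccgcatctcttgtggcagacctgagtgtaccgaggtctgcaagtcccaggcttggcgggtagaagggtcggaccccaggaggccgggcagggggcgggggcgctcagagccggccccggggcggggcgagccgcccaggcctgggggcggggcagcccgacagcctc
Among the 32851 windows of this length in the table, 6.38% held GTGGGAA, 7.15% CACGTG and 9.27% CACGCG. That these letters are missing says nothing about binding of the factors. In the window of *Notch2*, CACGCG occurred once, at position -42 from the start.

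Because a ratio of 2 genes within a library does not depend on how libraries are scaled, the balance of the receptors was read from such ratios. The log2 ratio of *Notch1* to *Notch2* counts rose from -2.81 ± 0.07 to -2.36 ± 0.10 (SD, n = 3 each), and that of *Notch2* to *Notch3* went from 4.82 ± 0.113 to 3.60 ± 0.397. The log2 ratio of *Notch1* to *Notch3* fell by 0.76, to 1.24 ± 0.482, and without *Aff3ir-ORF2*-/- replicate 2 it fell by 0.49, and that of *Notch2* to *Notch3* by 0.99. In each of the 3 receptor pairs the genotypes did not overlap (two-sided p = 0.1 by an exact permutation test, which cannot go lower with 3 libraries a genotype, and 0.12 adjusted over the 6 pairs compared). Thus *Notch3* gained on both other receptors and *Notch1* gained on *Notch2* in every library, although the design cannot bring such a test under 0.05. Per kb of the longest GENCODE M21 transcript, *Notch2* made up 82.7% ± 0.591 of the summed level of the 4 Notch receptors in WT and 74.9% ± 1.15 in *Aff3ir-ORF2*-/- MEFs (SD, n = 3). The share of *Notch1* was 13.0% ± 0.552 and 16.2% ± 1.27, and that of *Notch3* 3.83% ± 0.290 and 8.28% ± 2.30. In *Aff3ir-ORF2*-/- replicate 2 the *Notch3* share was 10.9%, against 7.01% and 6.89% in replicates 1 and 3.

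The ligand *Jag1* (gene ID 16449), which encodes Jagged1, was the member with the smallest adjusted p. WT libraries held 1474, 1551 and 1519 counts of it against 704, 604 and 787 in *Aff3ir-ORF2*-/- libraries. All *Aff3ir-ORF2*-/- libraries lay far below WT, and the WT libraries differed little. In CPM it fell from 86.8 ± 1.37 to 38.0 ± 5.26 (SD, n = 3). Its log2 fold change was -1.19 with SE 0.09 and a 95% interval from -1.39 to -0.99 (edgeR, adjusted p = 1.03e-05). Over all alternatives tried, including each library left out in turn, it stayed between -1.29 and -1.10. The libraries did not overlap in the higher direction for 4 of the 7 tested members and in the lower direction for 1, against 33.3% and 32.7% of all tested genes. The window before the start of *Jag1* held CACGCG on both strands, at positions -249 (read as CGCGTG) and -171, shown in capitals. It lies on the minus strand at chr2:137116521-137116770 and held neither GTGGGAA nor CACGTG.
Jag1: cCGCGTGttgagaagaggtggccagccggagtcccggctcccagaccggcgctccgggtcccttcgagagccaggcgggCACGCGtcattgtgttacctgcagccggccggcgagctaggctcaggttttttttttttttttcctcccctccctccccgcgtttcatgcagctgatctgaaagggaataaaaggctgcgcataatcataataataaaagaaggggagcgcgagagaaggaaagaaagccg

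The other ligands were barely counted. *Jag2*, for Jagged2, had 1, 4 and 1 counts in WT libraries against 2, 6 and 5 in *Aff3ir-ORF2*-/- libraries. Summed over a genotype these were 6 and 13 counts, a ratio of 2.05 with an exact 95% interval of 0.73 to 6.59. *Dll1*, for Delta-like 1, had 0, 4 and 6 in WT against 1, 3 and 0, a ratio of 0.38 (0.09 to 1.31). The genotypes overlapped for both genes, and the intervals, which cover counting error only, include no change, so that a difference was not detectable at this depth. Between *Jag1* and *Jag2* the log2 ratio went from 9.45 ± 0.885 to 7.28 ± 0.806 (SD, n = 3 each; 0.5 was added to each count), without overlap (exact permutation test, two-sided p = 0.1, adjusted 0.12), but *Jag2* is so near to 0 that the size of this ratio depends on a few counts.

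**Figure D2:**
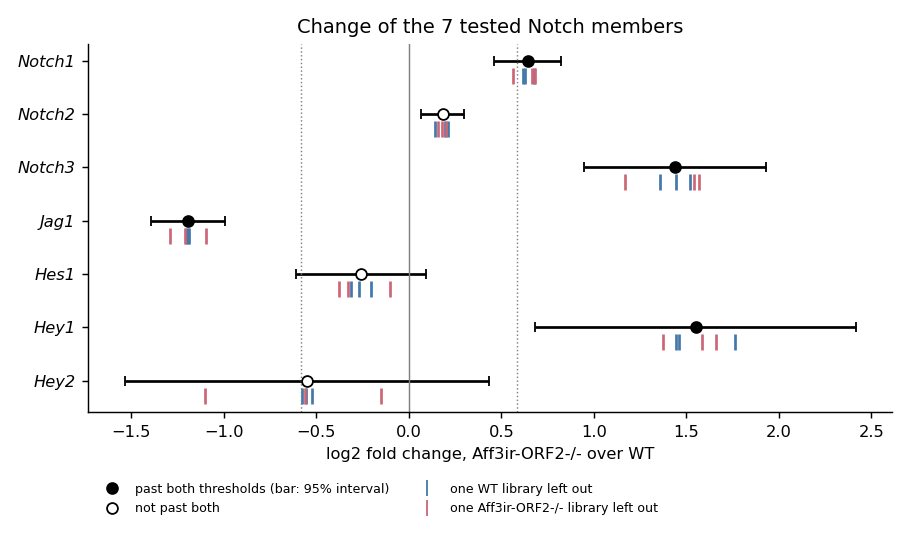
The log2 fold change of *Aff3ir-ORF2*-/- over WT is drawn for the 7 tested members with its 95% interval, filled where both thresholds were passed, with ticks for fits without 1 WT (blue) or 1 *Aff3ir-ORF2*-/- (red) library and dotted lines at a 1.5-fold change. *Jag1* stays beyond the lower line and *Notch3* and *Hey1* beyond the upper line in each of these fits, while *Notch1* crosses the line in 1 of them, at 0.56.

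Among the targets, *Hes1* and *Hey1* differed. For *Hes1* (gene ID 15205), WT libraries held 535, 501 and 470 counts against 504, 340 and 482 in *Aff3ir-ORF2*-/- libraries. The genotypes overlapped, and only replicate 2 of the *Aff3ir-ORF2*-/- libraries lay far below WT. Its level was 28.8 ± 2.08 against 24.1 ± 5.08 CPM (SD, n = 3). The log2 fold change was -0.26 (95% interval -0.61 to 0.09, adjusted p = 0.177 in edgeR's test), and without *Aff3ir-ORF2*-/- replicate 2 it was -0.10 (adjusted p = 0.241). For *Hey1* (gene ID 15213), WT libraries held 4, 4 and 6 counts against 12, 14 and 18 in *Aff3ir-ORF2*-/- libraries. It rose without overlap, at a low level, from 0.268 ± 0.0656 to 0.797 ± 0.166 CPM (SD, n = 3). Its log2 fold change was 1.55 with SE 0.39 and a 95% interval from 0.68 to 2.42 (edgeR, adjusted p = 0.00698). The adjusted p ranged from 0.00564 to 0.0365 over the alternatives in which it could be tested. Its sum of 14 against 44 counts gave a ratio of 2.98 with an exact 95% counting interval of 1.60 to 5.88. Within a library, the log2 ratio of *Hey1* to *Hes1* rose from -6.62 ± 0.390 to -4.86 ± 0.414 (SD, n = 3 each), with no overlap (exact permutation test, two-sided p = 0.1, adjusted 0.12).

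Of the other members of the Hey family, *Hey2* did not pass the test and *Heyl* had too few counts to be tested. For *Hey2* (gene ID 15214), WT libraries held 15, 15 and 16 counts against 11, 4 and 18 in *Aff3ir-ORF2*-/- libraries. The *Aff3ir-ORF2*-/- libraries spread to both sides of WT, and the log2 fold change was -0.55 (95% interval -1.54 to 0.43, adjusted p = 0.308 from edgeR), moving to -0.15 without *Aff3ir-ORF2*-/- replicate 2 and to -1.10 without replicate 3. For *Heyl* the WT libraries held 5, 2 and 3 counts against 3, 3 and 15. Summed over a genotype, the ratio was 1.99 with an exact 95% counting interval of 0.90 to 4.73. Only *Aff3ir-ORF2*-/- replicate 3 exceeded WT, and the other two libraries together held 6 counts. The log2 ratio of *Heyl* to *Hey1* overlapped between genotypes (-0.48 ± 0.670 against -1.38 ± 0.981, SD, n = 3 each, exact permutation test, two-sided p = 0.3, adjusted 0.3). *Hey2* was the only one of the 7 members with a RefSeq promoter whose window held the RBPJ letters. They occurred at positions -207 (read as TTCCCAC) and -4, in capitals here, on the minus strand at chr10:30842781-30843033, the second match running past the start.
Hey2: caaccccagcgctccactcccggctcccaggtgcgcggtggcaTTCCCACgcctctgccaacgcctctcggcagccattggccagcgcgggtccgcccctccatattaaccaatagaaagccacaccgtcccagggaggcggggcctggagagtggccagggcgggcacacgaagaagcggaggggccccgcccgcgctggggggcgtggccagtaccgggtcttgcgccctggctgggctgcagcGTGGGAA
Promoters of *Hes1*, *Hey1* and *Heyl* were not matched in the table. The windows of *Jag2* and *Dll1* held no GTGGGAA or CACGTG, while CACGCG occurred at position 19 after the start of *Jag2* and at -68 in 1 of the 2 windows of *Dll1*.

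Set side by side per length, as CPM per kb of the longest GENCODE M21 transcript, the members spanned a wide range. In WT MEFs the order was *Hes1* (19.6 ± 1.42), *Jag1* (15.5 ± 0.244), *Notch2* (12.6 ± 0.695), *Notch1* (1.98 ± 0.0943) and *Notch3* (0.584 ± 0.0681; SD, n = 3 each), and no neighbours in this part of the order overlapped. *Hey2* (0.345 ± 0.0127) came next and did not overlap *Hey1* (0.110 ± 0.0271). Below it, *Hey1*, *Dll1* and *Heyl* each overlapped the next, and *Jag2* was last. In *Aff3ir-ORF2*-/- MEFs, *Notch2* (14.3 ± 0.422) stood above *Jag1* (6.77 ± 0.938), so that the most abundant receptor and the most abundant ligand had changed places without overlap in either genotype. *Hes1* (16.4 ± 3.46) overlapped *Notch2* there, and *Notch1* (3.09 ± 0.284) and *Notch3* (1.58 ± 0.466) kept their places. Below *Notch3*, from *Hey1* (0.329 ± 0.0684) down to *Dll1*, each member overlapped the next.

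**Figure D3:**
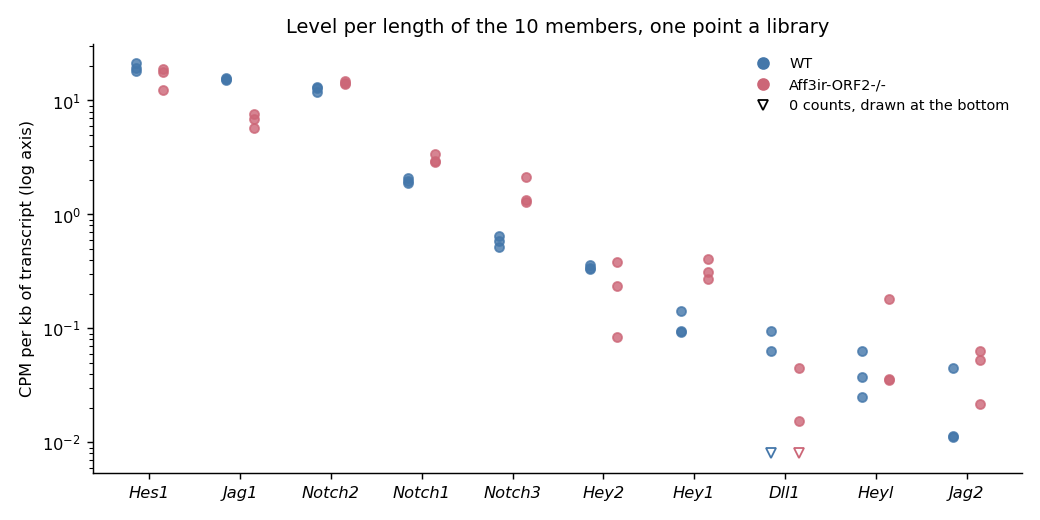
The level of each of the 10 members is drawn as CPM per kb of transcript on a log axis, with 1 point a library (WT blue, *Aff3ir-ORF2*-/- red), in the order of the WT means, and open triangles for libraries with 0 counts. *Jag1* lies above *Notch2* in WT and below it in *Aff3ir-ORF2*-/- MEFs, and the 5 members to the left of *Hey2* are above 0.5 in every library.

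Of 54 further Notch genes listed by role, 44 were tested, and 5 were higher and 0 lower past both thresholds in edgeR's test, against 14.2% and 7.27% of all tested genes. No listed gene was lower (0 genes) with an unadjusted p and the same fold threshold, with DESeq2 and with limma voom. Their median log2 fold change was 0.05. The adjusted p alone was passed by 25, of which 15 were up and 10 down, where 56.8% of all tested genes passed it. The nuclear partners of the receptors did not shift past the fold threshold. *Rbpj*, the DNA-binding factor on which all Notch receptors act, stood at 252 ± 1.70 against 260.1 ± 4.22 CPM (SD, n = 3). The log2 fold change was 0.05 (95% interval -0.04 to 0.13, adjusted p = 0.33). Of the 3 Mastermind coactivators, *Maml2* alone passed the adjusted p, at -0.38 (adjusted p = 8.16e-04 in the edgeR test).

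Among the gamma-secretase genes, *Psen2*, *Ncstn* and *Aph1a*, which encode subunits of the complex, passed the adjusted p but not the fold threshold, with log2 fold changes of 0.54, 0.30 and 0.24, and *Psen2* passed both without WT replicate 2 (0.61) or *Aff3ir-ORF2*-/- replicate 1 (0.59). *Aph1c* (gene ID 68318), another subunit, had 3, 4 and 6 counts in the WT libraries against 90, 88 and 115. It rose 20.8-fold (log2 fold change 4.38, SE 0.28, edgeR adjusted p = 2.61e-06), and like *Hey1* it passed the filter on low counts only through the *Aff3ir-ORF2*-/- libraries. Reads can be shared with its close copy *Aph1b*, so the value is uncertain, and the sum of both was 28.9 ± 2.15 CPM in WT and 33.0 ± 4.34 CPM in *Aff3ir-ORF2*-/- MEFs (SD, n = 3). *Adam10*, the protease that makes the first cut after ligand binding, was at 0.19 (adjusted p = 0.00425), under the fold threshold.

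Outside the core, *Dlk1*, a membrane protein of the Delta-like family that lacks the part with which Delta ligands activate Notch, rose from 38.6 ± 1.19 to 68.0 ± 9.25 CPM (SD, n = 3; log2 fold change 0.82, adjusted p = 9.15e-05). *Bhlhe41*, a repressor of the same helix-loop-helix class as the Hes proteins, rose from 12.1 ± 1.23 to 24.0 ± 2.70 CPM (log2 fold change 0.99, adjusted p = 4.45e-05). *Numb*, an adaptor known to restrain Notch, and *Tle1*, a corepressor that works with Hes proteins, passed the 1.5-fold threshold narrowly, at log2 fold changes of 0.60 and 0.60 (adjusted p = 1.89e-05 and 4.92e-05), and each was under it without WT replicate 3 (0.58 and 0.55), *Numb* also with no filter on low counts (0.58) and *Tle1* also without *Aff3ir-ORF2*-/- replicate 1 (0.57). *Itch* and *Fbxw7*, ubiquitin ligases that act on Notch, and *Spen*, a corepressor bound to RBPJ, were at 0.55, 0.54 and 0.51, under it, but *Itch* passed it with upper quartile scaling (0.59) and *Fbxw7* without WT replicate 2 (0.60). *Notch4* had 8, 9 and 5 counts in the WT libraries against 17, 12 and 15, without overlap. Its log2 fold change of 0.91 did not pass (adjusted p = 0.0529, range 0.0398 to 0.19 over the alternatives), and it too entered the test only through the *Aff3ir-ORF2*-/- libraries. *Lfng*, which adds sugars to the receptors, stood at -0.39 (adjusted p = 0.0746) and *Mib1*, a ligase needed in ligand-bearing cells, at 0.08 (adjusted p = 0.204). *Dll4* (5, 4 and 3 against 3, 0 and 1 counts), *Nrarp* (0, 3 and 0 against 4, 3 and 1) and *Hes5* (0, 0 and 1 against 0, 0 and 0) were too low to be tested.

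**Figure D4:**
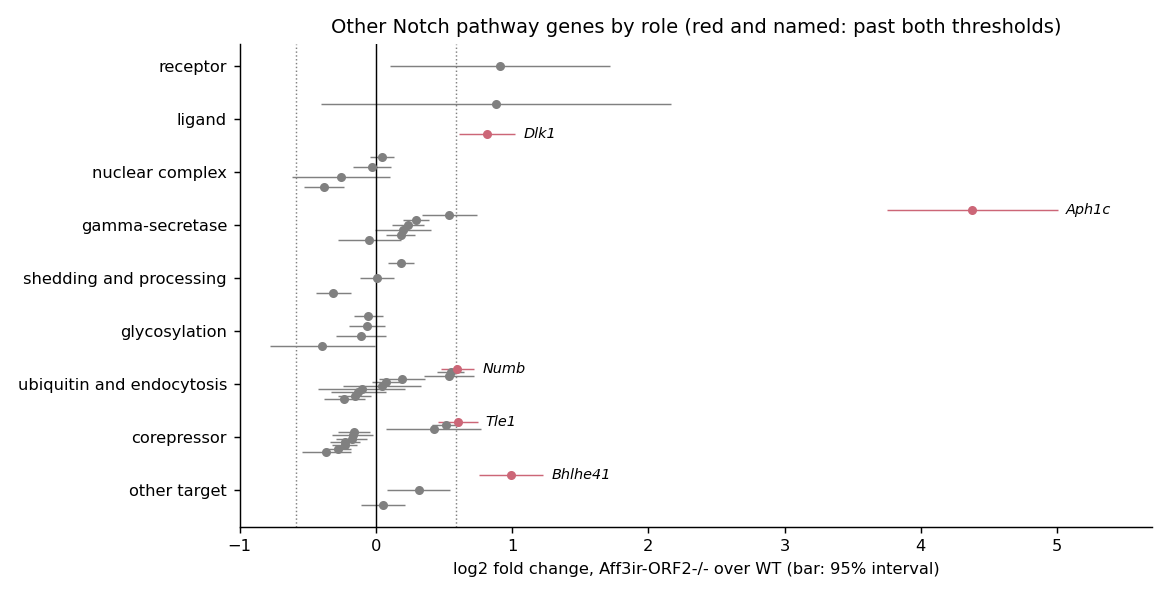
The log2 fold change of *Aff3ir-ORF2*-/- over WT is drawn with its 95% interval for the 44 tested genes of the pathway list, grouped by role, with dotted lines at a 1.5-fold change. The 5 genes past both thresholds are red and named, and *Aph1c* at 4.38 lies far from the other 43.

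Markers of other cell types moved with the genotype too, and their part in the values above was not tested. In bulk RNA, fewer cells of a type and less RNA per cell cannot be told apart. The counts below stand beside 14.2% of all tested genes higher and 7.27% lower past both thresholds. For mural cells, which carry *Notch3*, 6 of 11 tested genes of 12 listed were higher and 0 lower past both thresholds, with a summed level of 4654 to 4760 CPM in WT and 7563 to 8324 CPM in *Aff3ir-ORF2*-/- libraries. Most of that sum was *Acta2* and *Tagln*. *Myh11*, *Des* and *Rgs5*, also higher, had their highest level in *Aff3ir-ORF2*-/- replicate 2, as *Notch3* did, whereas *Acta2*, *Tagln* and *Cnn1* did not. This pattern was not particular to mural genes. The summed fibroblast level was 27547, 32464 and 25776 CPM in the *Aff3ir-ORF2*-/- libraries. Replicate 2 was the highest of these libraries for *Col1a1*, *Col1a2*, *Col3a1*, *Dcn*, *Lum*, *Pdgfra*, *Thy1*, *Fn1*, *Postn* and *Twist1*, but not for *Vim*, *S100a4* and *Prrx1*. Of the mural list, *Cspg4*, *Mcam* and *Smtn* passed the adjusted p but not the fold threshold, each without overlap. *Cspg4* and *Mcam* were higher (log2 fold changes 0.38 and 0.56, edgeR adjusted p = 2.16e-04 and 5.87e-04). *Smtn* was lower (log2 fold change -0.45, edgeR adjusted p = 9.96e-04). For endothelial cells, 3 of 6 tested genes of 13 listed were higher and 1 was lower (11.8 to 12.3 CPM against 19.2 to 24.0 CPM). The higher genes were *Vwf* (15, 19 and 25 against 69, 119 and 108 counts), *Erg* (5, 3 and 7 against 21, 45 and 26) and *Kdr* (81, 89 and 83 against 190, 118 and 229). The lower gene was *Cdh5* (15, 18 and 22 against 9, 10 and 12), and *Pecam1* had 2, 5 and 5 against 2, 3 and 4 counts. *Tek* (17, 13 and 12 against 9, 8 and 1) and *Egfl7* (60, 59 and 56 against 54, 45 and 42) were also lower without overlap. Neither passed the adjusted p (0.0564 and 0.0791 in the edgeR test). The summed level of the 13 macrophage genes was 19.0 to 21.9 CPM against 1256 to 2143 CPM, with *C1qa*, *C1qb* and *Aif1* at 0 in every WT library. All 12 tested genes of this list were higher, but *C1qa*, *C1qb*, *C1qc*, *Spi1*, *Tyrobp*, *Fcer1g* and *Adgre1* entered the test only through the *Aff3ir-ORF2*-/- libraries. So did *Erg* and *Rgs5* above, while *Cdh5* and *Tek* entered only through the WT libraries. The numbers of genes called in these lists were thus not independent of the change. Of 7 tested neural genes of 8 listed, 4 were higher and 2 lower (157 to 162 CPM against 180 to 229 CPM), and *Sox10* and *S100b*, among the higher, entered only through the *Aff3ir-ORF2*-/- libraries. Skeletal muscle (3.49 to 5.04 CPM against 3.68 to 4.14 CPM, 2 tested of 9) and epithelial genes (4.12 to 4.86 CPM against 3.65 to 5.43 CPM, 1 tested of 7) had none past the thresholds, and *Pax7* and *Myf5* had at most 1 count in a library. RefSeq lists non-coding genes that overlap *Notch1*, *Notch2*, *Notch3*, *Jag2* and *Hey2* and a coding locus that overlaps *Hey1*. The counting is not stated to use strand, so reads of such neighbours cannot be told apart from those of the members.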

How the data were processed

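RNA of MEFs was sequenced by a company as paired-end reads on a DNBSEQ instrument and the reads were cleaned with SOAPnuke. Deposited by the authors was an estimated count per gene and library, not normalized. The aligner and counting tool are not given in the sources used here, and the submitters' processing notes name the build mm8, so no coordinates of counted genes are given. Promoters come from RefSeq (GRCm38.p6). Between 10.6% and 11.3% of a library's values were not whole, and all were rounded. The 17092 genes were filtered with filterByExpr (minimum count 10, total 15), which left 13075, and tested with edgeR 4.0.16 (TMM scaling, robust quasi-likelihood, no covariate, R 4.3.3). The standard error is the size of the log2 fold change over the square root of F. limma 3.58.1 and DESeq2 1.42.0 served as alternatives, beside other scalings and filters, a replicate block and each library left out. The functions were tested on simulated data. Figures used matplotlib 3.10.9. Exact 95% intervals of summed counts cover counting error only.

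The members, the pathway and marker lists and the tests were chosen with earlier results of these data known. The genes named are all members, the listed genes past both thresholds and a fixed set of pathway genes named whatever their values, of which 1 is not reported here, with *Aff3*. The others were named after their values were seen, to spell out a count or a pattern. Listed genes absent from the counts, such as *Hes2*, were not analysed here.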

Additional observations from a re-analysis of the deposited data

How the results depend on the processing

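Over the scalings, filters and tools and with each library left out, each of the 7 tested members kept its direction, and *Jag1*, *Notch3* and *Hey1* stayed past both thresholds wherever they could be tested. Where a gene needed 10 counts in every library to enter, *Hey1* and *Hey2* could not be tested. The log2 fold change of *Notch1* lay between 0.56 and 0.68 with 1 library left out and missed the fold threshold only without *Aff3ir-ORF2*-/- replicate 3. The number of higher members was 2 to 4, and that of lower members 1 under every setting. Of the other pathway genes, 1 was higher with a 2-fold change, and 15 were higher and 10 lower without a fold threshold. With 1 library left out, 4 to 7 were higher and 0 to 1 lower, the 1 being *Lfng* without *Aff3ir-ORF2*-/- replicate 3 (-0.60). *Notch4* passed with upper quartile scaling (0.95), with total counts (0.94) and without *Aff3ir-ORF2*-/- replicate 2 (1.04), having entered the test only through the *Aff3ir-ORF2*-/- libraries. *Aph1b* changed sign, from -0.12 to 0.058, with 1 library left out and passed no test. With TGGGAA in place of GTGGGAA, 25.6% of promoters held a match. The replicate numbers are only names here, since the deviations of same-numbered libraries correlated at 0.0386, 0.0424 and 0.0145, although each library correlated best with its own number, a hint from the data and not the design. With the replicate block, 3 members were higher and 1 lower, and 1854 genes were higher and 954 lower in all, against 1851 and 951 without it. Members with under about 20 counts a library (*Jag2*, *Dll1*, *Hey1*, *Hey2*, *Heyl*) are limited by depth.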
